A study of Rattus norvegicus with 40 samples.

Results

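The liver response to the highest dose of GW7647 was read in 20 of the 40 rats of the study, the 10 given 10 mg/kg and the 10 given vehicle alone, which were chosen by their labels. GW7647 is a synthetic agonist of PPAR-alpha. All rats were adult male Sprague Dawley SD:CD animals of about 200 g, dosed by gavage once a day for 4 days, and whole liver was taken 24 h after the last dose. The vehicle rats had the same handling without the compound, and the other 20 rats, at 0.1 and 1 mg/kg in groups of 10, entered the estimate of the spread. Each liver's total RNA went on its own Affymetrix array, and 13437 genes were tested, each through 1 probe set. The question was which transcripts of the liver differed from vehicle at this dose.

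PPAR-alpha is a nuclear receptor that binds fatty acids and their derivatives. It pairs with a retinoid X receptor on DNA and switches on genes by which hepatocytes take up, transport and burn fat in mitochondria and peroxisomes, as in fasting. In rats and mice, agonists of this receptor are also known for an increase in peroxisomes and for growth of the liver, and for lower levels of inflammatory plasma proteins. Hepatocytes make up most of liver mass, and macrophages (Kupffer cells), endothelial cells and stellate cells line the sinusoids. In bulk tissue, fewer cells of a type and less RNA per cell cannot be told apart.

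Values are log2 expression values as deposited, and the 10 mg/kg arrays as a whole read higher than the vehicle arrays. The median probe set was at 2.71 ± 0.01 against 2.47 ± 0.02 (SD, n = 10 each), and over all genes the middle log2 change was 0.26. After quantile normalization, which gives all 40 arrays the same distribution, this median was -0.02. If the groups had been normalized in separate runs, run and dose could not be told apart. The words rose and fell are therefore kept for genes for which limma's adjusted p was under 0.05 in the same direction on both scales. By this rule 2748 genes (20.5%) rose and 1033 (7.69%) fell, and counts of members below are to be read against these shares. Both shares were larger among the 5713 genes with a vehicle or 10 mg/kg mean at log2 5 or more, of which 1520 rose and 540 fell. Many lists below consist mostly of such genes, so the shares of all genes set a low mark for them. On the deposited scale alone 8626 genes (64.2%) passed, 7593 (56.5%) of them higher and 1033 (7.69%) lower. On the quantile scale 2748 (20.5%) were higher and 3273 (24.4%) lower, so the rule leaves more room for rises than for falls. Folds are on the deposited scale, and for rises they are smaller after quantile normalization.

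**Figure D1:**
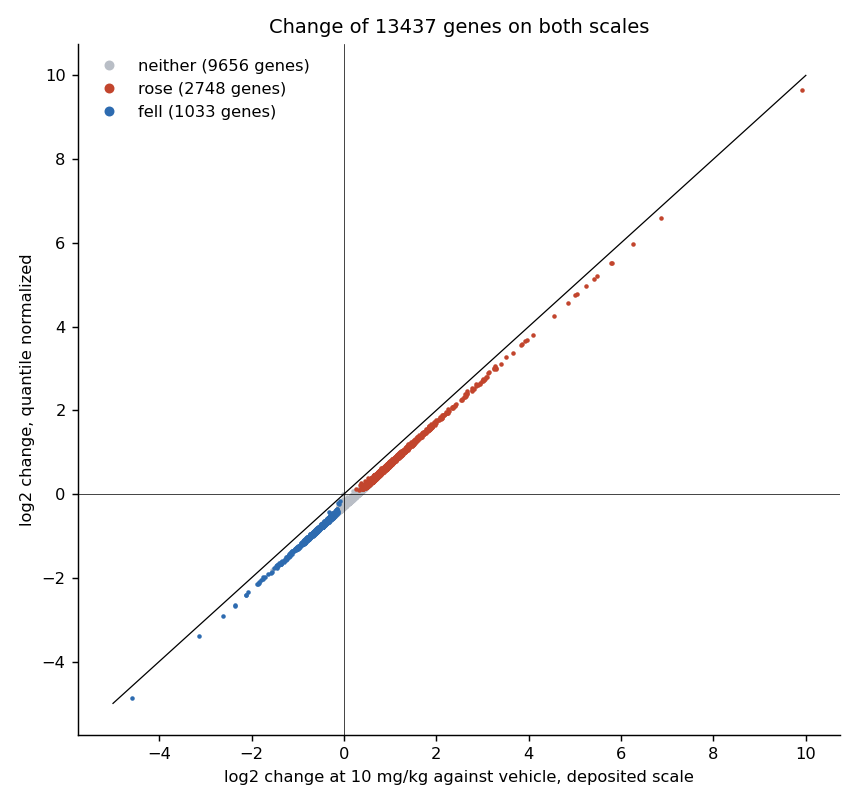
Log2 change of each of 13437 genes at 10 mg/kg against vehicle as deposited (horizontal) and quantile normalized (vertical), with the line of equal values. Red points are the 2748 genes that rose, blue points the 1033 that fell and grey points the others; nearly the whole cloud lies below the line, and the point at the upper right is Acot1.

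Array controls differed between the vehicle and 10 mg/kg groups as well. Spiked-in polyadenylated RNAs, which pass through labelling with the sample and have 24 probe sets, were at 5.57 ± 0.37 on vehicle arrays and 6.56 ± 0.38 on 10 mg/kg arrays, and beta-actin's 3′ minus 5′ signal was 2.78 ± 0.24 and 3.22 ± 0.41 (log2, SD, n = 10 each). Their part in the results was not tested. The 18 probe sets of hybridisation controls were at 9.34 ± 0.15 with vehicle and 9.58 ± 0.14 at 10 mg/kg. A shift of the arrays by these controls is among the alternatives given at the end. Vehicle rat 1 and 10 mg/kg rat 2 stood apart in array measures, and without both arrays 2854 genes rose and 968 fell. Of the list counts given below, this changed the nuclear receptors and coregulators that fell from 1 to 4, the clock genes that rose from 5 to 3, the immediate-early and the pericentral genes that rose from 2 to 1, the proteasome subunits that fell from 2 to 1, and the carnitine shuttle and heat shock genes that fell from 0 to 1. Every other list count in the text moved by 1.5 times or less. The tissue read as liver at both doses. Albumin read 13.48 to 13.56 (median 13.52) with vehicle and 13.45 to 13.54 (median 13.50) at 10 mg/kg, and the summed level of 11 hepatocyte markers was 15.65 to 15.73 and 15.60 to 15.76 (log2). On the quantile scale this sum was 15.74 to 15.78 and 15.52 to 15.69, without overlap, and 5 of the 11 markers fell and 0 rose. Lymphocyte, neutrophil and red blood cell markers had 0 members with a group mean at log2 5, the level above which a gene is called bright here.

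The largest change of any gene was that of Acot1, a cytosolic thioesterase that frees fatty acids from coenzyme A. It read 1.36 to 2.10 (median 1.65) in the vehicle rats and 11.39 to 11.66 (median 11.60) in the treated rats, so that the floor of the array was left behind in all 10. The fold was 961, with an SE of 0.08 on the log2 scale and limma's adjusted p = 2.01e-48. Background correction sets values near the floor, so a fold from there is uncertain in size, and the close sequence of other thioesterases could add signal. Of the 8 measured thioesterases 6 rose and 0 fell. In each of the 6, every treated rat lay above every vehicle rat, which over all genes held for 488 (3.63%) on both scales. Every treated rat lay below every vehicle rat for 127 genes (0.945%). Lack of overlap in genes named below is to be read against these shares, as many were chosen for the size of their change.

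The carnitine shuttle, which carries long fatty acyl groups into mitochondria, rose at nearly every step. Of its 9 measured genes 7 rose and 0 fell (median log2 change 1.82 as deposited, 1.52 on the quantile scale). Slc22a5, the carnitine importer of the cell membrane, read 4.65 to 5.86 (median 5.49) with vehicle and 7.20 to 7.78 (median 7.44) at 10 mg/kg. Cpt2, which rebuilds acyl-CoA inside the mitochondrion, read 8.61 to 9.73 (median 9.08) and 10.66 to 11.10 (median 10.86). Slc25a20, the carrier that exchanges acylcarnitine for carnitine, read 8.17 to 8.51 (median 8.34) and 9.78 to 10.37 (median 10.18). The groups did not overlap for any of these 3 genes, and their folds were 4.28, 3.27 and 3.53.

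Cpt1b, the muscle form of the entry enzyme, was at 2.18 to 2.46 (median 2.25) in the vehicle rats, near the floor, and at 7.96 to 8.97 (median 8.48) in the treated rats. Cpt1a, the liver form, started from 7.76 to 9.08 (median 8.03) and reached 9.56 to 10.04 (median 9.83), a 3.20-fold rise. Crot, which makes carnitine esters of medium chains in peroxisomes, rose 3.59-fold from a vehicle mean of 9.68 ± 0.40 (limma's adjusted p = 1.72e-17). The treated rats were closer together than the vehicle rats for Cpt1a, Cpt2 and Crot.

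Of 16 measured genes of mitochondrial beta-oxidation 14 rose and 0 fell (median log2 change 1.07 as deposited, 0.79 on the quantile scale). Hadha and Hadhb encode the subunits of the trifunctional protein, which runs the last steps on long chains. Hadhb read 9.35 to 9.79 (median 9.54) with vehicle and 11.39 to 11.63 (median 11.51) at 10 mg/kg, a 3.89-fold rise with an SE of 0.06 (log2). Hadha rose 4.81-fold, although its other probe sets gave log2 changes of 0.31 to 1.53. Acadvl, the dehydrogenase for the longest chains, read 8.91 to 9.22 (median 9.02) and 10.14 to 10.40 (median 10.29), and it rose 2.37-fold. None of the vehicle rats reached the lowest treated rat for these genes.

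Auxiliary enzymes prepare unsaturated chains for this spiral. Eci1, which moves a double bond, went from 9.74 to 10.37 (median 9.98) to 12.59 to 12.74 (median 12.67) and rose 6.34-fold, with other probe sets between 0.26 and 2.65. Decr1, a reductase of dienoyl-CoA, rose 2.63-fold from 10.58 ± 0.21 to 11.97 ± 0.07 (SD, n = 10 each). Etfdh, which passes the electrons to the respiratory chain, rose 1.66-fold, from 8.06 to 9.16 (median 9.03) to 9.36 to 10.01 (median 9.62), and the groups did not overlap on the deposited scale but did after quantile normalization.

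Of 13 measured genes of peroxisomal beta-oxidation 7 rose and 2 fell. Abcd3, which imports acyl-CoA into the peroxisome, read 8.15 to 8.81 (median 8.58) with vehicle and 10.16 to 11.23 (median 10.58) at 10 mg/kg, a 4.19-fold rise. Hacl1, which cleaves branched chains in alpha-oxidation, rose 3.15-fold. Eci2, a peroxisomal isomerase, rose 2.94-fold, and Ech1 rose 8.01-fold, from 9.08 ± 0.26 to 12.08 ± 0.08. The 2 that fell act on branched chains and bile acid precursors. Amacr, the racemase of such chains, read 10.89 to 11.66 (median 11.21) and 10.21 to 10.99 (median 10.47) and fell by 0.73 on the log2 scale (SE 0.10, limma's adjusted p = 4.41e-08). Acox2, their oxidase, fell by 0.32 (limma's adjusted p = 0.0291), and its groups overlapped.

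Peroxins build and divide peroxisomes. Of 13 measured 5 rose and 0 fell, and their median log2 change of 0.33 was close to that of all genes. Pex11a, which elongates the peroxisome membrane before division, read 5.89 to 6.46 (median 6.26) with vehicle and 9.50 to 10.18 (median 9.93) at 10 mg/kg, a 12.7-fold rise. Pex19, the receptor for new membrane proteins, rose 5.10-fold from 4.71 ± 0.24 to 7.06 ± 0.26. Most other members were in neither set of calls.

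Fatty acid uptake, binding and activation had 14 of 25 measured genes that rose and 0 that fell. Cd36, a fatty acid translocase, read 4.83 to 6.92 (median 5.97) with vehicle and 8.03 to 9.33 (median 8.54) at 10 mg/kg, a 6.86-fold rise. Acsl3, an acyl-CoA synthetase of lipid droplets and membranes, rose 6.14-fold from 5.18 ± 0.28 to 7.80 ± 0.46. Fabp3, the heart form of the fatty acid binding proteins, was at 3.04 to 4.13 (median 3.73) with vehicle and 9.25 to 11.53 (median 10.65) with treatment. The treated rats differed among themselves more than the vehicle rats did for Fabp3, by an SD of 0.62 against 0.34.

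Fabp1, the abundant binding protein of hepatocytes, already read 12.45 to 12.67 (median 12.50) in the vehicle rats. It reached 12.96 to 13.16 (median 13.04) at 10 mg/kg, and although the rise was only 1.43-fold the groups did not overlap (SE 0.04 on the log2 scale, limma's adjusted p = 1.46e-13). Probe sets this bright can compress a change. Its promoter is shown because it holds a match to a direct repeat of the kind that PPAR-alpha binds. The 250 bases before the start of Fabp1 lie at chr4:104749090-104749339 on the + strand of GRCr8 (RefSeq), and capitals mark the match on the opposite strand at chr4:104749263-104749275, at -77 to -65 from the start.
Fabp1: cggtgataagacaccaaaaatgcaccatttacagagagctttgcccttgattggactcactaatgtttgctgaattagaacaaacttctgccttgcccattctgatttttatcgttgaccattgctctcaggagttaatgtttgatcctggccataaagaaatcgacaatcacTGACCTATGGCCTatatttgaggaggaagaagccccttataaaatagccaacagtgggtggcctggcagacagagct
The motif searched on both strands was the half-site AGGNCA, a spacer of 1 base and AGGNCA again, which takes in the stricter repeat of AGGTCA. Of 11088 tested genes with a promoter sequence 35 (0.316%) held the first and 3 (0.0271%) the second. Of the 231 genes (1.72%) that rose at least 2-fold on both scales 189 had a sequence and 0 held either, and this covers only these letters in these 250 bases.

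Coenzyme A is the handle on which fatty acids are oxidised, and its pathway rose in 8 of 11 measured genes, with 0 that fell (median log2 change 0.94 as deposited, 0.65 on the quantile scale). Pank1, the kinase that sets the rate of synthesis, read 7.47 to 7.98 (median 7.79) with vehicle and 8.94 to 10.06 (median 9.47) at 10 mg/kg. Ppcs, the next enzyme, read 7.07 to 7.76 (median 7.49) and 9.0 to 9.76 (median 9.26). Both rose, 3.51-fold and 3.59-fold, and both groups of rats were fully apart. Nudt7, which breaks coenzyme A down in peroxisomes, rose 4.36-fold, and Slc25a42, its mitochondrial importer, rose 3.22-fold. Vnn1, which recycles pantothenate from pantetheine, read 4.53 to 6.51 (median 5.82) and 10.13 to 10.75 (median 10.57), a 28.8-fold rise. Genes for making and for breaking coenzyme A were thus both among those that rose.

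Downstream of beta-oxidation, the tricarboxylic acid cycle had 11 of 18 measured genes that rose and 0 that fell, the respiratory chain and ATP synthase 38 of 58 and 0, and mitochondrial ribosomal proteins 34 of 66 and 0. The sizes were small, with list medians of 0.55, 0.53 and 0.51 (log2; 0.26, 0.25 and 0.21 on the quantile scale). Aco1, a cytosolic aconitase that also senses iron, had the largest change of the cycle's list, 3.74-fold, from 8.23 to 8.96 (median 8.54) to 10.22 to 10.78 (median 10.46). Ndufa7, a subunit of complex I, went from 9.53 to 9.94 (median 9.73) to 10.55 to 10.78 (median 10.67), a 1.92-fold rise with complete separation of the groups. Mrpl30, of the large mitochondrial ribosomal subunit, rose 2.77-fold. Hspd1, the mitochondrial chaperonin, rose 1.94-fold.

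Pyruvate entry and ketone bodies changed in a few genes. Pdk4, the kinase that shuts off pyruvate dehydrogenase, read 7.81 to 9.55 (median 8.76) with vehicle and 10.63 to 11.94 (median 11.21) at 10 mg/kg, a 6.27-fold rise. Mpc2, a subunit of the mitochondrial pyruvate carrier, rose 2.27-fold. Acat1, which joins acetyl-CoA units, read 9.17 to 9.74 (median 9.40) and 10.68 to 11.41 (median 11.12) and rose 3.18-fold. Slc16a6, a carrier by which ketone bodies leave the liver cell, rose 4.15-fold from low levels. Of 7 measured ketone body genes 4 rose and 0 fell.

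Uncoupling proteins, which let protons leak back into mitochondria, were low in the vehicle livers. Ucp3 read 2.29 to 2.73 (median 2.43) with vehicle and 4.06 to 5.88 (median 5.16) at 10 mg/kg, a 6.30-fold rise, and Ucp2 read 3.27 to 3.55 (median 3.31) and 4.03 to 5.13 (median 4.52), a 2.30-fold rise. No vehicle rat overlapped a treated rat for either gene. Slc25a30, a mitochondrial carrier, rose 4.29-fold but ranged widely in both groups, 6.17 to 9.35 (median 7.44) and 7.88 to 10.69 (median 9.71).

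Glycerol channels split by type. Aqp3 read 1.61 to 2.03 (median 1.82) with vehicle and 4.65 to 8.08 (median 6.94) at 10 mg/kg, and Aqp7 read 1.80 to 2.25 (median 1.89) and 6.22 to 8.01 (median 7.10). Both rose from the floor of the array, 32.3-fold and 33.0-fold. Aqp9, the main glycerol channel of hepatocytes, was bright throughout, at 9.74 to 10.16 (median 10.0) and 8.77 to 9.76 (median 9.34), and it fell by 0.69 on the log2 scale (SE 0.09, limma's adjusted p = 2.84e-08). Gpd1 and Gpd2, which connect glycerol phosphate with the redox state of cytosol and mitochondria, rose 2.06-fold and 5.90-fold. Dgat1, which adds the third fatty acid to triglyceride, went from 7.10 to 7.75 (median 7.29) to 8.45 to 8.91 (median 8.62), a 2.60-fold rise. Dgat2, which does the same with newly made fatty acids, read 10.02 to 10.45 (median 10.10) and 9.43 to 9.90 (median 9.61) and fell by 0.51. The 2 acyltransferases therefore moved apart, each with no overlap between the groups.

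Of 18 measured droplet proteins and lipases 10 rose and 1 fell. Adig, a small protein of adipocyte droplets, read 1.73 to 2.38 (median 2.07) with vehicle and 6.67 to 8.97 (median 7.70) at 10 mg/kg, a 55.7-fold rise. Cidea, which fuses droplets, rose 15.6-fold, from 3.66 to 4.94 (median 4.31) to 7.50 to 9.15 (median 8.27). Plin2, the main droplet coat of hepatocytes, rose 2.20-fold, with other probe sets between -0.08 and 1.37. Cidec, a relative of Cidea, was the member that fell, with means of 8.21 ± 0.18 and 7.88 ± 0.14 (a log2 change of -0.33). Lpl, the lipase of circulating triglyceride, read 2.52 to 4.23 (median 3.72) and 5.74 to 8.74 (median 7.75), and Angptl4, its inhibitor, read 7.02 to 9.09 (median 8.36) and 9.73 to 10.60 (median 10.13). Both rose, 14.5-fold and 3.83-fold. Adiponectin (Adipoq), which defines adipocytes, read close to the floor in both groups, at 1.56 to 2.12 (median 1.91) and 2.06 to 2.67 (median 2.40), and rose 1.40-fold with overlapping groups. Of 14 measured adipocyte and muscle markers 2 rose and 3 fell, and their summed level was 8.63 to 9.23 with vehicle and 8.28 to 9.01 at 10 mg/kg (log2). Only 2 of the 14 were bright, and Cidec, itself bright in these livers, is among them. This sum is therefore not a measure of adipocyte or muscle content.

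Genes of fatty acid synthesis also rose. Of 22 measured genes of synthesis, elongation and desaturation 16 rose and 1 fell (median log2 change 0.87 as deposited, 0.60 on the quantile scale). Me1, the malic enzyme that supplies NADPH, read 6.51 to 7.86 (median 7.47) with vehicle and 10.10 to 10.75 (median 10.49) at 10 mg/kg, a 8.53-fold rise. Fads2, the delta-6 desaturase, read 8.92 to 9.60 (median 9.32) and 11.25 to 11.69 (median 11.52), a 4.59-fold rise. Elovl6, which lengthens palmitate, rose 8.38-fold, and Scd2, a stearoyl-CoA desaturase, rose 8.25-fold, with other Scd2 probe sets between 0.33 and 0.59. Srebf1, a transcription factor of this pathway, rose 1.97-fold.

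The proteins that hold back sterol-regulated factors went opposite ways. Insig1 read 7.44 to 9.69 (median 8.84) with vehicle and 9.69 to 10.91 (median 10.36) at 10 mg/kg and rose 3.06-fold. Insig2, the member of the fatty acid synthesis list that fell, read 9.61 to 10.23 (median 9.87) and 7.81 to 9.63 (median 9.05), a log2 change of -1.01 (SE 0.19, limma's adjusted p = 1.36e-05). Cholesterol synthesis and uptake had 7 of 19 measured genes that rose and 0 that fell. Lss, which closes the sterol rings, rose 2.13-fold, with wide and overlapping groups of 5.94 to 8.26 (median 6.90) and 7.05 to 8.37 (median 8.06).

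The largest fall of any gene was that of Apoa4, an apolipoprotein of triglyceride-rich particles. It read 10.17 to 11.05 (median 10.66) in the vehicle rats and 5.15 to 7.06 (median 6.01) in the treated rats, so that even the highest treated rat was far below the lowest vehicle rat. It was 24-fold lower, with an SE of 0.21 on the log2 scale (limma's adjusted p = 3.73e-21). Of 28 measured genes of apolipoproteins and lipoprotein handling 12 fell and 6 rose. Apoa5, which promotes triglyceride clearance, read 10.53 to 11.23 (median 10.83) and 9.33 to 10.49 (median 10.03) and fell by 0.80. Apoc3, which slows that clearance, read 12.92 to 13.10 (median 13.06) and 12.60 to 12.84 (median 12.76) and fell by 0.31, a small shift with no overlap. Apoa1, the main protein of high-density lipoprotein, had a log2 change of -0.01 (limma's adjusted p = 0.947).

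Among the risers of that list, Abcg1, a cholesterol exporter, rose 2.66-fold, with another probe set at 0.11. Vldlr, a lipoprotein receptor, rose 3.43-fold from a vehicle mean of 2.17 ± 0.16 close to the floor, with its other probe sets at 0.36 and 0.58.

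Of 22 measured bile acid genes 8 rose and 2 fell, the falls close to the share of all genes. Cyp7a1, the rate-limiting enzyme of synthesis, ranged 5.78 to 8.12 (median 7.20) with vehicle and 7.14 to 9.67 (median 8.58) at 10 mg/kg, and rose 3.02-fold with overlapping groups. Cyp8b1, which directs synthesis to cholic acid, went from 7.71 to 9.48 (median 8.73) to 9.50 to 10.51 (median 9.81), a 2.26-fold rise. Nr0b2 (SHP), a repressor of both enzymes, rose too, 3.63-fold, from 6.47 ± 0.83 to 8.33 ± 0.42. Abcb11, the bile salt export pump, rose 1.57-fold, and this call was lost without the 2 arrays that stood apart.

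**Figure D2:**
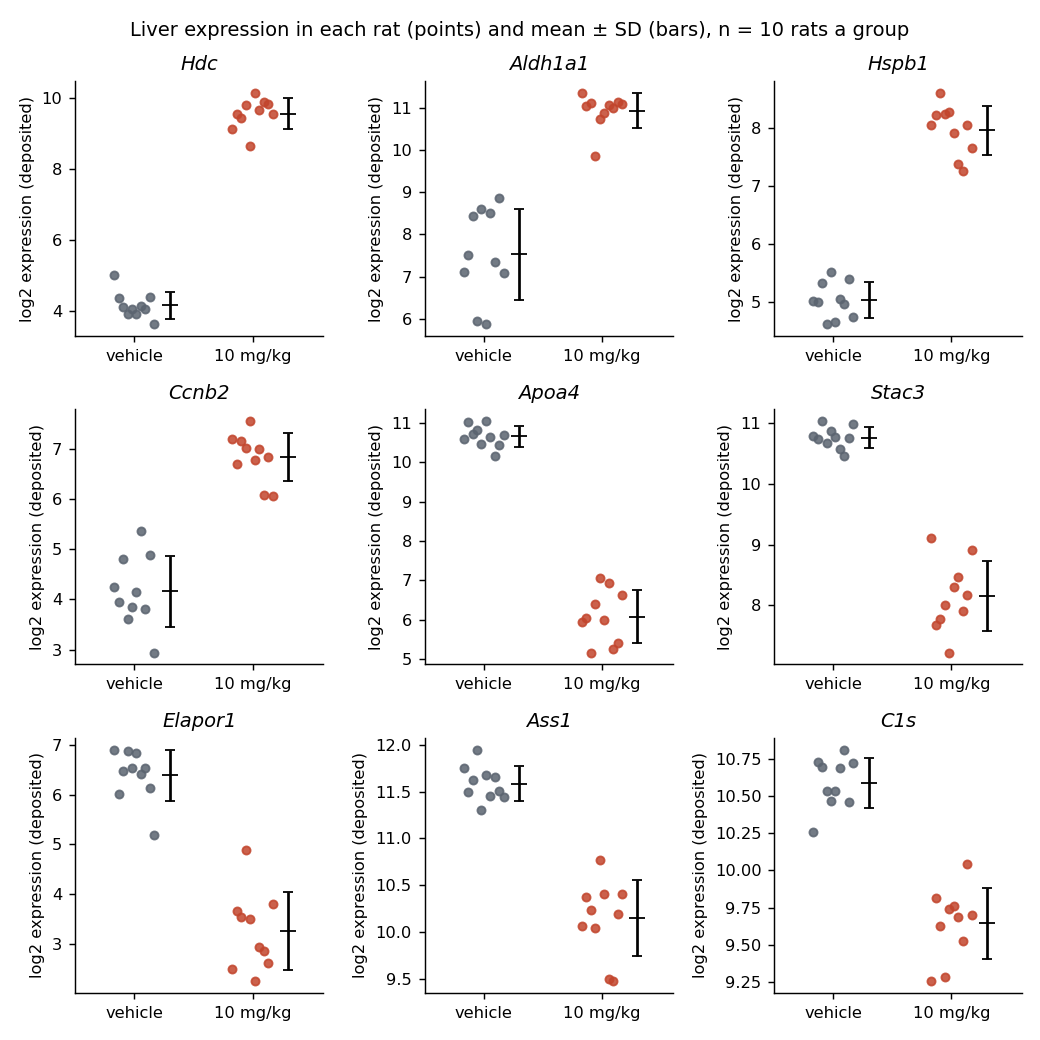
Deposited log2 expression of 9 genes in each vehicle rat and each 10 mg/kg rat (points), with mean ± SD (bars, n = 10). Hdc, Aldh1a1, Hspb1 and Ccnb2 lie higher and Apoa4, Stac3, Elapor1, Ass1 and C1s lower in all 10 treated rats than in all 10 vehicle rats, with Aldh1a1 much more scattered among vehicle rats.

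Of 28 measured drug-handling cytochromes P450 8 fell and 6 rose, the rises close to the share of all genes. Cyp17a1, a steroid hydroxylase, read 4.77 to 5.74 (median 4.95) with vehicle and 7.45 to 8.44 (median 7.78) at 10 mg/kg, a 7.01-fold rise. Cyp2j4, which makes epoxides of arachidonic acid, rose 3.76-fold, and Por, the reductase that feeds electrons to these enzymes, rose 2.96-fold. Among those that fell, Cyp3a9 read 6.82 to 8.40 (median 7.73) and 4.32 to 6.82 (median 5.40) and was 5.13-fold lower. Cyp1a2, a pericentral enzyme, read 10.03 to 10.75 (median 10.41) and 9.0 to 9.85 (median 9.31), and Cyp2c11, a male-specific form, read 11.66 to 12.28 (median 12.12) and 10.17 to 11.78 (median 11.38). Both fell, by 1.0 and 0.71 on the log2 scale. The Cyp4 fatty acid hydroxylases are a list of their own, in which 2 of 8 measured genes rose and 3 fell (median log2 change -0.12 as deposited, -0.40 on the quantile scale). Cyp4a1, an omega-hydroxylase, had the largest change there and rose 9.59-fold. The P450 and Ugt families hold close copies, whose probe sets may share signal.

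Conjugating enzymes had 4 of 29 measured genes that rose and 6 that fell. Ugt2b1, a glucuronosyltransferase, read 9.46 to 10.43 (median 9.88) with vehicle and 6.08 to 9.01 (median 7.73) at 10 mg/kg and was 5.13-fold lower. Of 16 measured aldehyde dehydrogenases 4 rose and 4 fell. Aldh1a1, which makes retinoic acid, was uneven in the vehicle rats, at 5.87 to 8.86 (median 7.43). It was higher in every treated rat, at 9.86 to 11.36 (median 11.05), a 10.6-fold rise, with rat 4 apart at the low end.

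Glucose genes had 6 of 30 measured that rose and 6 that fell. Pck1, the first committed enzyme of gluconeogenesis, read 10.97 to 11.63 (median 11.47) with vehicle and 9.36 to 11.15 (median 9.82) at 10 mg/kg, where 1 treated rat reached into the vehicle range. Ugp2, which makes UDP-glucose for glycogen, read 8.79 to 9.89 (median 9.50) and 7.54 to 8.32 (median 7.89), with no overlap. Slc37a4, the glucose phosphate carrier, and Pklr, the liver pyruvate kinase, had means of 9.92 ± 0.16 and 8.25 ± 0.35 with vehicle. All 4 fell, with log2 changes of -1.47, -1.56, -0.85 and -0.97. Ldha, lactate dehydrogenase, and Pfkfb1, a regulator of glycolysis, rose 1.61-fold and 2.28-fold. Tkfc, which phosphorylates glyceraldehyde from fructose, fell by 1.37 in the probe set used, but another probe set rose by 0.34, so its direction is not settled.

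Amino acid breakdown had 12 of 45 measured genes that fell and 5 that rose. Sds, serine dehydratase, read 7.26 to 8.99 (median 7.63) with vehicle and 3.80 to 7.06 (median 5.83) at 10 mg/kg. Hal, which opens histidine breakdown, read 8.72 to 9.43 (median 9.04) and 7.35 to 8.03 (median 7.77). The groups were apart for both, with log2 changes of -2.12 and -1.31. Dao, which oxidises D-amino acids, fell by 1.37. Prodh, proline dehydrogenase, fell by 1.24 in the probe set used and had a log2 change of 0.13 in another. Hibch, of valine breakdown, rose 3.61-fold, and Agxt, which detoxifies glyoxylate, rose 2.10-fold.

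In the urea cycle, Ass1, which joins citrulline and aspartate, read 11.31 to 11.95 (median 11.56) with vehicle and 9.47 to 10.77 (median 10.21) at 10 mg/kg, a fall by 1.44 on the log2 scale (SE 0.11, limma's adjusted p = 3.57e-14). Cps1, the entry enzyme, fell by only 0.15 (limma's adjusted p = 0.0195), and Gls2, which frees ammonia for it, fell by 0.71. Genes of periportal hepatocytes, a list that shares these 3 with Hal, Sds and Pck1, fell in 9 of 13 measured and rose in 1 (median log2 change -0.45 as deposited, -0.73 on the quantile scale). Of 13 measured pericentral genes 3 fell and 2 rose.

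**Figure D3:**
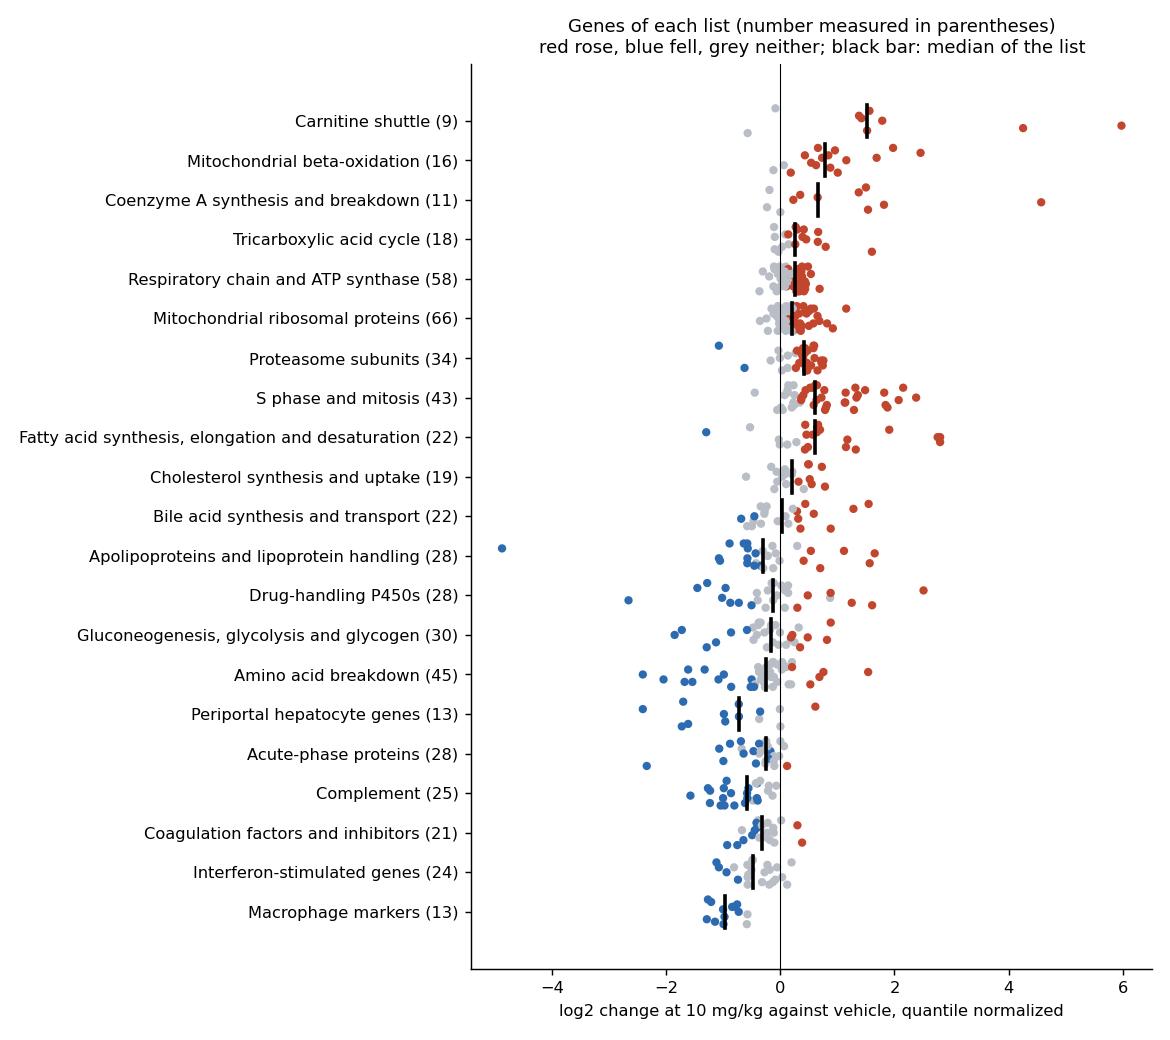
Log2 change at 10 mg/kg against vehicle after quantile normalization for the measured genes of 21 lists (1 point a gene), with the median of each list as a black bar. Red genes rose and blue genes fell on both scales; the bars lie between 1.52 for the carnitine shuttle and -0.98 for macrophage markers.

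Plasma proteins made by the liver fell in several lists. Complement, the cascade that marks and punctures microbes, fell in 18 of 25 measured genes and rose in 0 (median log2 change -0.33 as deposited, -0.58 on the quantile scale). C1s, a starting protease, read 10.26 to 10.81 (median 10.61) with vehicle and 9.25 to 10.04 (median 9.69) at 10 mg/kg. Mbl1, a mannose-binding lectin, read 9.96 to 10.59 (median 10.17) and 8.98 to 9.88 (median 9.45). C6, of the membrane attack complex, read 8.03 to 9.60 (median 8.83) and 6.88 to 8.20 (median 7.54). The first 2 did not overlap between groups and C6 did, with log2 changes of -0.95, -0.78 and -1.26.

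Acute-phase proteins fell in 11 of 28 measured and rose in 1, and coagulation factors fell in 7 of 21 and rose in 2. A2m, a protease inhibitor of rat acute phase, read 5.56 to 7.55 (median 6.41) with vehicle and 3.18 to 5.45 (median 4.0) at 10 mg/kg. Apcs (serum amyloid P) read 11.12 to 11.72 (median 11.56) and 10.36 to 10.99 (median 10.83). Both were lower in every treated rat than in any vehicle rat, by 2.07 and 0.74 on the log2 scale. Saa4, an apolipoprotein of the serum amyloid A family, fell by 0.80, and Cpb2, which slows clot lysis, fell by 0.66. F9, coagulation factor IX, fell by 0.37 with overlapping groups.

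Markers of macrophages moved with these falls. Of 13 measured 11 fell and 0 rose (median log2 change -0.66 as deposited, -0.98 on the quantile scale), and their summed level was 11.36 to 12.21 with vehicle and 10.70 to 11.59 at 10 mg/kg. Clec4f, a lectin of rodent Kupffer cells, read 9.54 to 10.45 (median 10.14) and 8.75 to 9.83 (median 9.26), and Cd163, a haemoglobin scavenger receptor, read 4.01 to 5.03 (median 4.59) and 3.13 to 3.93 (median 3.55). Both fell, by 0.86 and 1.03. C1qb, a complement subunit that macrophages make and that stands in both lists, fell by 0.96. The part of the macrophage change in the complement and acute-phase results was not tested. Of 11 endothelial markers 3 fell and 0 rose, and of 15 stellate markers 3 fell and 2 rose. The summed endothelial level was 9.95 to 10.21 and 9.66 to 10.15 as deposited, where the groups overlapped, and 10.09 to 10.33 and 9.56 to 9.97 on the quantile scale, where they did not. The summed stellate levels overlapped on both scales.

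**Figure D4:**
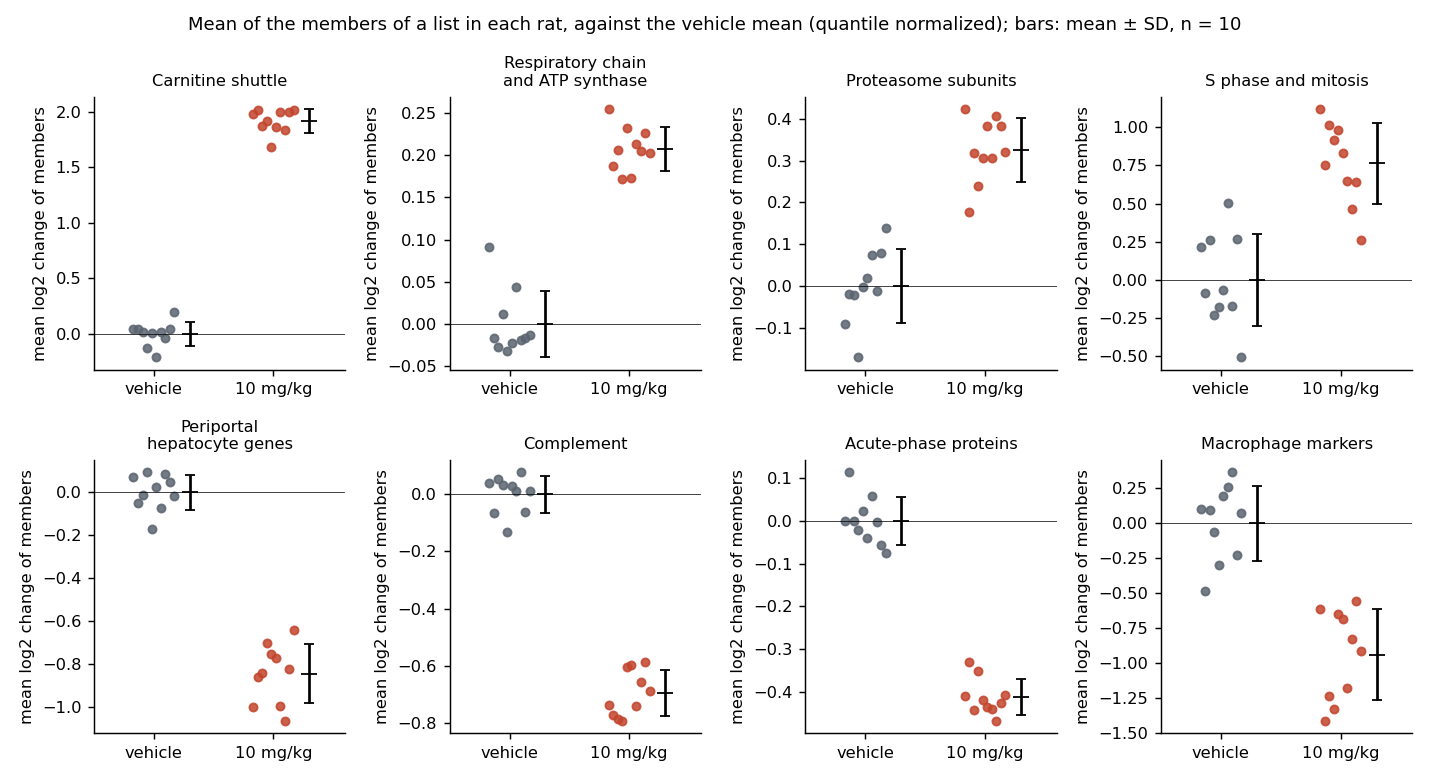
Mean log2 change of the members of 8 lists in each rat against the vehicle mean, after quantile normalization (points), with mean ± SD over 10 rats (bars). All 10 treated rats lie above all 10 vehicle rats for the carnitine shuttle, the respiratory chain and the proteasome and below them for periportal genes, complement, acute-phase proteins and macrophage markers, while the groups overlap for S phase and mitosis.

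Falls were also above the share of all genes (7.69%) in other immune lists. Of 24 measured interferon-stimulated genes 4 fell and 0 rose (median log2 change -0.21 as deposited, -0.49 on the quantile scale). Irf7, a transcription factor of that response, fell by 0.79 on the log2 scale with overlapping groups. Ifitm3, an antiviral membrane protein, read 9.08 to 9.98 (median 9.58) with vehicle and 7.76 to 8.67 (median 8.28) at 10 mg/kg and fell by 1.31. Of 16 antigen presentation genes 4 fell and 2 rose, among them RT1-S3, a class Ib molecule, which fell by 1.0. In each rat, the interferon list's mean log2 change from vehicle was -0.44 to 0.33 with vehicle and -0.56 to 0.26 at 10 mg/kg, as deposited. For the antigen presentation list it was -0.42 to 0.165 and -0.45 to 0.146. The groups overlapped for both lists on both scales. Gsdmd, which forms pores in dying cells, read 5.91 to 6.46 (median 6.13) and 4.41 to 5.32 (median 4.74), lower in every treated rat. Cxcl1, a chemokine for neutrophils, was uneven in the vehicle rats, at 3.15 to 6.88 (median 4.78), and fell by 1.84.

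Immediate-early genes, which respond within minutes to growth factors and stress, fell in 6 of 22 measured and rose in 2. Dusp1 and Dusp6, phosphatases that switch off MAP kinases, read 7.56 to 9.91 (median 8.88) and 6.07 to 8.13 (median 7.31) with vehicle. At 10 mg/kg they read 6.21 to 8.16 (median 7.20) and 5.05 to 6.88 (median 6.08), with falls by 1.45 and 1.30 and overlap between the groups. Klf10, a TGF-beta response factor, rose 2.35-fold.

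Proteasome subunits rose in 25 of 34 measured and fell in 2 (median log2 change 0.71 as deposited, 0.41 on the quantile scale). Psmd2, of the regulatory particle, read 8.13 to 8.85 (median 8.34) with vehicle and 9.30 to 9.60 (median 9.41) at 10 mg/kg, and Psmb7, a catalytic subunit, read 7.17 to 7.62 (median 7.35) and 8.05 to 8.63 (median 8.51). Both rose, 2.09-fold and 2.05-fold. The 2 that fell, Psmb8 and Psmb10, are the catalytic subunits of the immunoproteasome, with log2 changes of -0.76 and -0.31. The fall of Psmb10 was not called without the 2 arrays that stood apart.

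Heat shock proteins rose in 5 of 24 measured and fell in 0, close to the share of all genes. Hspb1, a small chaperone, had the largest change and read 4.61 to 5.52 (median 5.0) with vehicle and 7.26 to 8.61 (median 8.05) at 10 mg/kg, a 7.66-fold rise. Antioxidant genes rose in 10 of 31 and fell in 2. Gpx4, which repairs lipid peroxides, rose 1.84-fold, with another probe set at 0.28. Mt2A, a metallothionein, read 7.62 to 9.92 (median 8.90) and 5.16 to 7.62 (median 6.49) and fell by 2.11.

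Genes of S phase and mitosis rose in 29 of 43 measured and fell in 0 (median log2 change 0.85 as deposited, 0.61 on the quantile scale). Only 13 of the 43 were bright, and 10 of those rose. Ccnb2, a mitotic cyclin, read 2.94 to 5.36 (median 4.06) with vehicle and 6.07 to 7.55 (median 6.92) at 10 mg/kg, without overlap. Cdk1, its kinase, read 3.30 to 5.73 (median 4.71) and 5.73 to 7.38 (median 7.0). They rose 6.38-fold and 4.34-fold. Ccnb1 rose 5.34-fold, and Rrm2, which makes nucleotides for DNA, rose 3.18-fold with wide groups of 4.95 to 7.95 (median 6.74) and 7.58 to 9.32 (median 8.58). Mki67, the common marker of dividing cells, was near the floor, with means of 1.85 ± 0.17 and 2.64 ± 0.45, and rose 1.73-fold. Ccnd1, the G1 cyclin, had a log2 change of 0.44 that passed on the deposited scale (limma's adjusted p = 0.0375) but not after quantile normalization (0.636). Cdkn1a, the p21 inhibitor, rose 1.86-fold.

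Among nuclear receptors and coregulators 8 of 27 rose and 1 fell. Ppara itself read low, 1.89 to 2.54 (median 2.09) with vehicle and 2.32 to 3.04 (median 2.62) at 10 mg/kg, and its log2 change of 0.45 was called on the deposited scale only (limma's adjusted p = 0.000502, and 0.115 after quantile normalization). Rxra had a log2 change of 0.15 (limma's adjusted p = 0.453), while Rxrg, another partner, rose 2.18-fold. Creb3l3, a fasting-induced factor of hepatocytes, read 9.37 to 10.40 (median 9.63) and 10.77 to 11.23 (median 11.16), a 2.66-fold rise. Nr1i3, the receptor CAR, rose 2.28-fold, and Ppargc1b, a coactivator of mitochondrial genes, rose 2.23-fold. Of 18 clock genes 5 rose and 5 fell, among them Hlf, which rose 1.90-fold, and Bhlhe40, which fell by 1.01.

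Hormone-related genes changed in places. Dio1, which converts thyroxine, read 5.97 to 7.12 (median 6.31) with vehicle and 4.18 to 5.46 (median 4.60) at 10 mg/kg and fell by 1.71 on the log2 scale. Serpina7, thyroxine-binding globulin, rose 6.10-fold, from 4.63 ± 0.96 to 7.24 ± 0.73. Fgf21, a fasting hormone, rose 2.65-fold with overlapping groups, 3.13 to 5.15 (median 4.23) and 4.88 to 6.86 (median 5.44). Igf1 had a log2 change of 0.17 (limma's adjusted p = 0.0983). Stac3, an adapter known from muscle, is given here only because it stood in the growth hormone axis list. Of the 21 measured genes of that list 3 rose and 3 fell. Stac3 read 10.46 to 11.04 (median 10.77) and 7.21 to 9.11 (median 8.08) and was 6.14-fold lower. Hsd11b2, which inactivates corticosterone, fell by 1.5, with overlap.

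Several of the strongest changes lay outside these pathways. Hdc, which makes histamine, read 3.62 to 5.01 (median 4.09) with vehicle and 8.64 to 10.15 (median 9.61) at 10 mg/kg, a 42.6-fold rise (SE 0.19, log2, limma's adjusted p = 2.57e-25). Aoc1, which breaks histamine down, also rose, 8.74-fold, from 2.31 to 2.67 (median 2.47) to 4.65 to 6.50 (median 5.81). Both transcripts were higher in every treated rat than in any vehicle rat. Aig1, a hydrolase of branched fatty acid esters, rose 44.4-fold, although another probe set gave 0.19.

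Spmip11 read 1.91 to 2.28 (median 2.20) with vehicle and 6.98 to 9.10 (median 8.02) with treatment, and Cacna2d3, a calcium channel subunit, read 1.63 to 1.93 (median 1.81) and 6.43 to 8.02 (median 6.89). Both left the floor in all treated rats. Krt23, a keratin, rose 15.1-fold, Qpct, which cyclises glutamine ends of peptides, 11.4-fold, and Spink1, a trypsin inhibitor, 14.3-fold. Nim1k, a kinase, and Hsdl2, a dehydrogenase-like protein of peroxisomes and mitochondria, rose 9.86-fold and 9.74-fold. Krt23 and Qpct also started near the floor, with vehicle means of 1.83 ± 0.22 and 2.17 ± 0.17, while Hsdl2 already read 6.22 to 6.94 (median 6.71) without treatment.

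Among genes that fell outside the lists, Elapor1, a protein of endosomes and lysosomes, read 5.20 to 6.90 (median 6.50) with vehicle and 2.25 to 4.89 (median 3.22) at 10 mg/kg and was 8.77-fold lower. Mmd2 fell by 1.87 on the log2 scale, Mtmr7, a lipid phosphatase, by 1.87, and Pde4b, which degrades cyclic AMP, by 1.74, with another Pde4b probe set at -0.31. Xpnpep2, a membrane aminopeptidase, read 5.71 to 6.75 (median 6.53) and 4.38 to 5.50 (median 4.92), with no overlap. Akr1c1, an aldo-keto reductase, fell by 1.57, with overlapping groups.

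The treated rats were not alike for every gene. Over 5075 genes with both means at log2 5 or more, the median SD was 0.205 in the vehicle group and 0.213 at 10 mg/kg. Ephx2, the soluble epoxide hydrolase, read 8.02 to 8.73 (median 8.40) in the vehicle rats. At 10 mg/kg 7 rats lay between 10.47 and 11.56, above all vehicle rats, and rats 6, 7 and 8 lay between 7.10 and 7.30, below all of them. At 1 mg/kg rats 6 and 9 were likewise low, at 6.61 and 5.96, and the other 8 were at 9.10 to 11.13. A mean does not describe such a group, and limma's adjusted p was 0.0161 as deposited and 0.0747 once quantile normalized.

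For Ugt2b, a glucuronosyltransferase, rat 7 at 10 mg/kg read 2.91 and the other 9 rats 10.01 to 11.13, beside 10.76 to 11.82 (median 11.36) in the vehicle group. At 1 mg/kg 1 rat read 2.98. Mlc1 was uneven in both groups, 2.42 to 7.84 (median 6.75) and 2.31 to 5.13 (median 4.77). Ephx2, Ugt2b and Mlc1 were named for their spread or their size of change, and their unevenness is a description.

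The 10 mg/kg rats were also set against the 10 rats at 1 mg/kg, a comparison that shares the treated rats with the one above. On both scales 1149 genes (8.55%) were higher and 804 (5.98%) lower at 10 than at 1 mg/kg. The genes below were chosen for the size of this difference, and their values are a description. Ucp3 had a mean of 2.45 at 1 mg/kg, close to the vehicle mean of 2.48, and 5.13 at 10 mg/kg. Slc6a20b, of a family of imino acid carriers, had means of 2.42, 2.57 and 5.20 with vehicle, 1 and 10 mg/kg. Pnpla3, a lipase-like droplet protein, had means of 4.60, 4.44 and 7.59, and Lpl 3.69, 4.16 and 7.55. In these 4 genes the values at 1 mg/kg overlapped those of the vehicle rats.

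Others had higher means at 1 mg/kg than with vehicle, and higher again at 10 mg/kg. Fabp3 had means of 3.69, 5.41 and 10.55, Cpt1b 2.29, 4.79 and 8.54, and Adig 2.05, 4.33 and 7.85. At 0.1 mg/kg their means were 3.53, 2.17 and 2.18, near those of the vehicle rats. Aqp3 at 1 mg/kg ranged from 2.06, just above the vehicle rats, to 6.07, above the lowest 10 mg/kg rat. Acot1, by contrast, already had a mean of 10.71 at 1 mg/kg against 11.56 at 10 mg/kg, and Eci1, Decr1, Cyp4a1 and Ech1 differed by 0.25, 0.24, 0.33 and 0.41 on the log2 scale. Of the lists, proteasome subunits were higher at 10 than at 1 mg/kg in 21 of 34 measured genes and lipid synthesis genes in 14 of 22, with 2 and 0 lower. Complement was lower in 12 of 25 and periportal genes in 8 of 13, with 0 and 1 higher, and S phase and mitosis genes were higher in 5 of 43 with 0 lower.

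**Figure D5:**
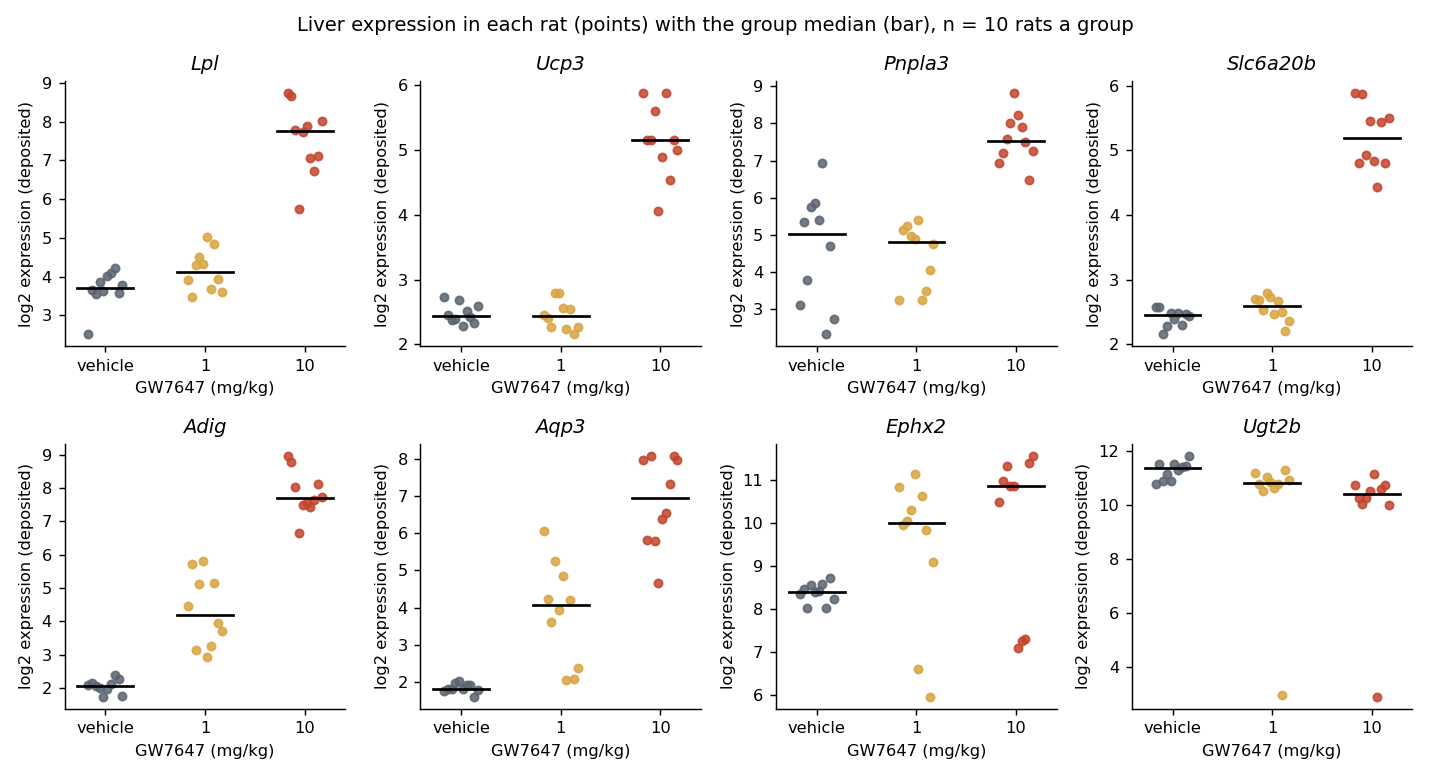
Deposited log2 expression of 8 genes in each rat (points) of the vehicle, 1 mg/kg and 10 mg/kg groups, with the group median (bar, n = 10 rats each). Lpl, Ucp3, Pnpla3 and Slc6a20b at 1 mg/kg overlap the vehicle rats, Adig at 1 mg/kg lies between the other groups, Aqp3 at 1 mg/kg overlaps the 10 mg/kg rats, 3 rats at 10 mg/kg are below the vehicle range for Ephx2 and 1 rat is far below all others of its group for Ugt2b.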

How the data were processed

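The authors deposited log2 expression values of 31139 probe sets on 40 arrays, for which the submitters' processing notes name GCRMA and Partek. The version of each is not given in the sources used here. The method GCRMA subtracts a sequence-dependent background, normalizes between arrays and gives 1 log2 value a probe set, so dim genes sit near a floor. Arrays have no read depth, and their number limits the precision.

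There were 19068 probe sets with 1 gene symbol, 573 with several and 11498 without a name here. A RefSeq table of GRCr8 gave current symbols by Entrez number. The probe set with the highest mean stood for each of 13437 genes, 3985 of which had more than 1. A linear model with 4 groups of 10 rats (36 residual degrees of freedom) was fitted with limma 3.58.1 in R 4.3.3 (lmFit and eBayes, two-sided, Benjamini-Hochberg adjustment over all genes), on the deposited values and after quantile normalization. The code was tested on simulated data. Promoters (250 bases) were matched by symbol for 11088 genes.

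The members, the 54 gene lists (1070 of 1284 genes measured) and the rule for names were chosen with earlier results of these data known. The rule allowed the 30 largest rises and falls, up to 6 called members of a list, 36 set genes of which 31 were measured (the others were not analysed here), the 10 largest differences from 1 mg/kg and 5 genes of larger spread. The higher mean had to reach log2 5, except for the set genes, which were taken whatever their values. Etfdh, Amacr, Acox2, Aqp9, Dgat2, Adipoq, Plin2, Insig2, Vldlr, Cd163, Psmb8, Psmb10, Rrm2 and Ppargc1b fell outside the rule, and they were named with their values in view. Alternatives were other scalings, filters, probe set choices, fits and left-out arrays. Among them, quantile normalization with a filter at log2 5 and leaving out vehicle rat 1 with 10 mg/kg rat 2 were chosen after seeing the data. Figures were drawn with matplotlib 3.10.9 in Python 3.11.15.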

Additional observations from a re-analysis of the deposited data

Results flagged for a closer look

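Of 334 sets of 10 rats, 2 for each of 167 genes named, 26 had 1 rat whose gap to its nearest neighbour was too wide a part of the group's range by Dixon's test, and chance alone flags about 1 set in 20. Vehicle rat 1 was that rat for 8 genes, with log2 values of 11.12 for Apcs, 10.91 for Cpb2, 7.75 for Dgat1, 10.45 for Dgat2, 8.06 for Etfdh, 2.52 for Lpl, 9.65 for Mpc2 and 8.85 for Psmd2. Other vehicle rats stood apart at 7.55 for A2m, 4.48 for Abcg1, 2.10 for Acot1, 3.54 for Aig1, 8.47 for Ech1, 5.20 for Elapor1, 2.26 for Mki67 and 5.01 for Nr1i3.

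At 10 mg/kg, rat 4 stood apart at 9.86 for Aldh1a1, 4.65 for Cxcl1 and 10.17 for Cyp2c11, and rat 2 at 2.32 for Mmd2 and 3.11 for Rxra. Rat 1 read 9.33 for Apoa5 and 10.52 for Hsdl2, rat 7 read 2.80 for Pde4b and 2.91 for Ugt2b, and rat 8 read 7.05 for Lss.

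Among array measures, the upper quartile of 10 mg/kg array 2 was 4.89, and vehicle array 1 read 6.50 for the poly-A controls and 2.20 for beta-actin's 3′ minus 5′ signal. The poly-A control probe sets, which report on labelling and not on the liver, averaged 6.56 at 10 mg/kg, above the vehicle arrays.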

How the results depend on the processing

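On the deposited scale 7593 genes were higher and 1033 lower at 10 mg/kg than with vehicle. With quantile normalization of all 40 arrays these counts were 2748 and 3273, of only the 2 groups 2667 and 3210, with arrays shifted to 1 median 3161 and 2758, and with a shift by hybridisation controls 2227 and 1795. Bright genes only (a mean of at least log2 5 in the vehicle or the 10 mg/kg group), 5713 in all, gave 3323 and 542, fewer because fewer genes were tested, and after quantile normalization as well 1554 and 1547. A test against 1.2-fold gave 2858 and 295. Of the calls on the deposited scale 88.0% were higher, and 45.6% after quantile normalization. The genes that differed between 10 and 1 mg/kg numbered 4109, and 2462, 1151 and 264 after quantile normalization, with the control shift and in the test against 1.2-fold. Leaving out each array in turn gave 7414 to 7615 higher and 947 to 1032 lower, and without vehicle rat 1 and 10 mg/kg rat 2 after quantile normalization 2854 and 3254. With the replicate number as a block 7613 genes were higher and 1045 lower and 4110 differed from 1 mg/kg. The numbers do not pair the rats: same-numbered deviations correlated at -0.26 to 0.23, over 0.1 in 1 of 10 pairs. With the lowest probe set of a gene, Prodh turned to 0.13, Tkfc to 0.34 and Plin2 to -0.081. Of the genes that rose or fell, 1127 have further probe sets. In 156 of them another probe set passed in the opposite direction on the deposited scale, the only scale used for that count. Of 2155 values of named genes under alternatives, 2108 kept their side of the threshold, 32 lost it, 12 gained it and 3 changed sign. Most of these genes were named because they passed on both scales with large changes. Their stability was thus largely set by that choice and says little about other genes. The cause of the differences between settings was not tested. Genes near the floor, among them Acot1, Aqp3, Aqp7 and Cpt1b with vehicle, have folds that depend on the background correction.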
